A study of Rattus norvegicus with 18 samples.

Results

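Heat shock proteins and J-domain chaperones were followed in the rat retina through 24 h of damaging light, with and without pretreatment by dietary saffron or photobiomodulation (PBM). Members were all genes whose array annotation symbol begins with Hspa, Hspb, Hspd, Hspe, Hsph or Hsp90, or with Dnaja, Dnajb or Dnajc, followed by a number. This gave 72 of the 29214 probe sets on the array and 63 genes, each represented by its probe set with the highest mean signal. Classes follow the symbol and not the protein family. There were 7 small heat shock proteins (Hspb), Hsph1 (an Hsp110 protein) and 11 Hspa members (Hsp70 and related proteins). The rest were 3 Hsp90 proteins, the chaperonin pair Hspd1 and Hspe1, and 39 J-domain proteins (4 Dnaja, 12 Dnajb and 23 Dnajc). One Hspa probe set carries the symbols of several Hspa1 genes at once and is called the shared Hspa1 probe set, since its signal cannot be assigned to a single gene.

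The 18 arrays fall into 6 groups of 3, each array measuring the retina of a different animal. All animals were albino Sprague Dawley rats, aged 80 to 120 postnatal days and reared in dim cyclic light of 5 lux. The control group had no treatment. The saffron group ate 1 mg of saffron per kg per day for 3 weeks, and the PBM group was held under red light for 3 min per day on 5 days. The light-damaged (LD) group was exposed to white light for 24 h. SafLD and PBMLD animals had the same light exposure after saffron or PBM. The light level is given as 1000 lux for all light groups in one label field and as 100 lux for the LD group alone in another. The study's methods give 1000 lux for LD and the same exposure for SafLD and PBMLD. Each group held males and females by the methods, but which array came from which sex is not stated in the labels, so sex could not be entered in the fit. The whole retina was assayed, so fewer cells of a type and less RNA per cell cannot be told apart.

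Heat shock proteins are molecular chaperones that bind unfolded or partly folded proteins. Hsp70 proteins bind and release their clients in a cycle driven by ATP, J-domain proteins start that cycle by stimulating the ATPase, and Hsp110 proteins restart it by exchanging the nucleotide. Small heat shock proteins hold unfolded proteins without using ATP, and Hsp90 acts late in the folding of kinases, receptors and other signalling proteins. Heat shock factor 1 induces many of these genes by binding inverted repeats of a short unit, the heat shock element. Rod photoreceptors make and transport large amounts of membrane protein, and bright light kills them in albino animals.

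Values are log2 signals as the authors normalized them, and differences are log2 differences between group means with their standard error (SE). A gene was called where the p from limma passed 0.05 once adjusted over the 29214 probe sets (Benjamini-Hochberg). Over the members, the standard deviation (SD) within groups had a median of 0.19, against 0.20 over all probe sets. It was below 0.3 for 58 of the 63. Many of the members' extremes fell on a pair of arrays, saffron 2 with 11 lowest and 9 highest members and PBMLD 2 with 10 lowest and 9 highest. The rod marker mean over 10 genes lay between 12.68 and 12.81 in the groups without light and between 12.05 and 12.56 in the light groups. The median difference of the 10 with light was -0.36. Of them 5 were called lower, where 4.82% of all probe sets were called in either direction.

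The light groups as a whole had 6 members called higher than the groups without light and 0 called lower. They were Hspb1, Hsph1, Hspa9, Dnajb1, Dnajb9 and Dnajb7. Across all probe sets 4.82% were called in this comparison, 2.83% in the higher direction, and 6.16% of probe sets with 1 gene symbol, against 9.52% of the members (6 of 63). Apart from Hspb1 the called changes were small, between 1.24-fold and 1.44-fold. The median of all members was 0.02 on the log2 scale, against -0.01 over all probe sets. For 62 of 63 members the 95% interval of the difference lay within a 2-fold change in either direction, the exception being Hspb1.

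**Figure D1:**
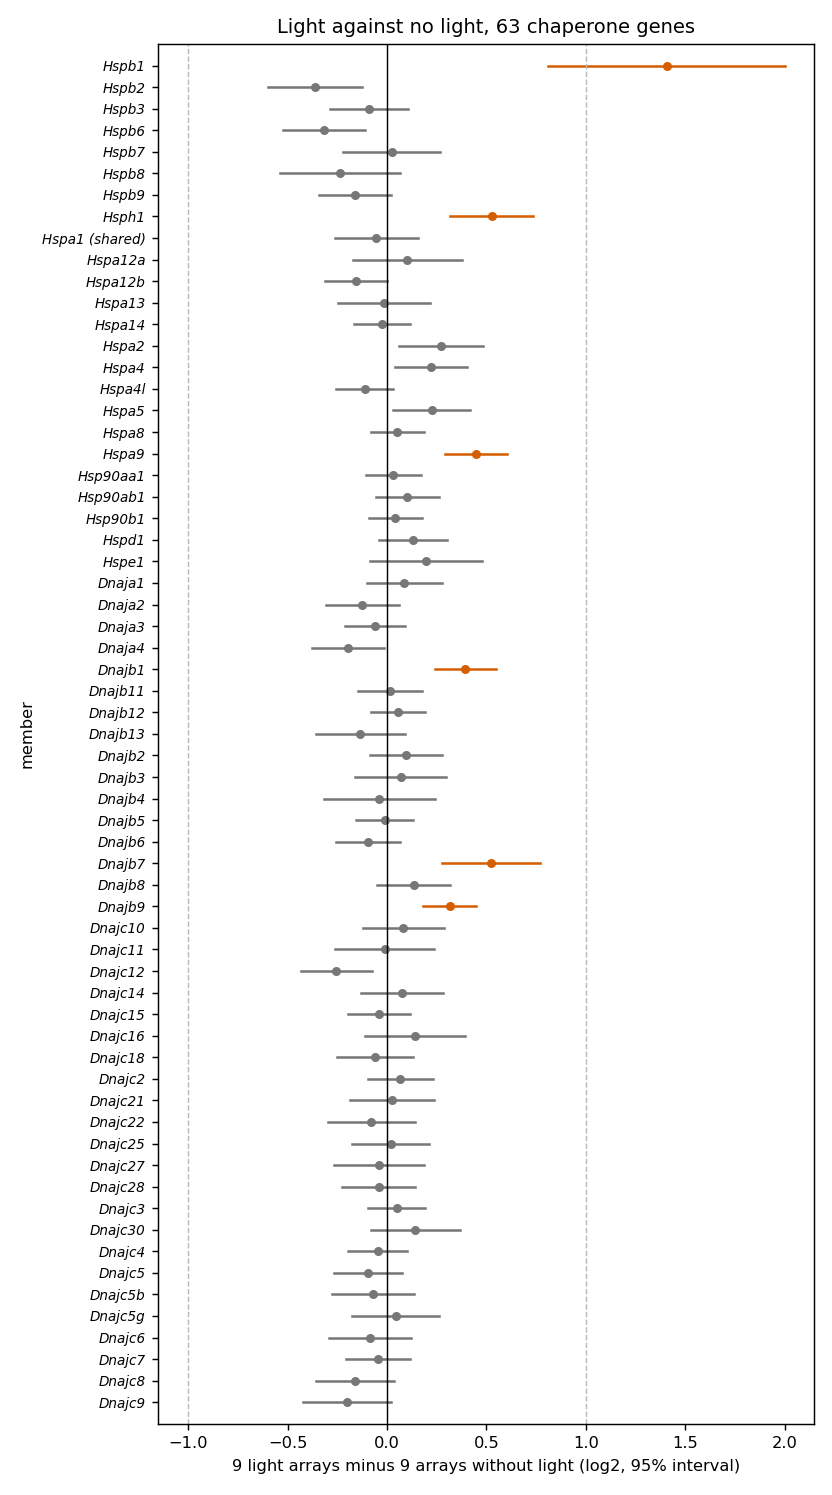
Difference (log2) between the mean of the 9 light arrays and the mean of the 9 arrays without light for each of the 63 members, with its 95% interval from the limma fit. Orange marks adjusted p below 0.05, dashed lines mark a 2-fold change, and only the interval of Hspb1 crosses one of them.

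Promoters of the members, called or not, were examined for the heat shock element, through which heat shock factor 1 acts. RefSeq promoters (build GRCr8, 250 bases before to 50 after the annotated start, the first listed per gene) were matched to 51 of the 63 members, as 52 sequences. Either inverted pair, GAANNTTC or TTCNNGAA (each reads the same on both strands, and the pairs can overlap each other), was present in 16 of the 52 (30.8%) and in 15.4% of the promoters of all 27457 genes. The promoter of Hspb1, chr12:26432252-26432551 on the minus strand, is shown whole, with both of its matches in capitals.
Hspb1: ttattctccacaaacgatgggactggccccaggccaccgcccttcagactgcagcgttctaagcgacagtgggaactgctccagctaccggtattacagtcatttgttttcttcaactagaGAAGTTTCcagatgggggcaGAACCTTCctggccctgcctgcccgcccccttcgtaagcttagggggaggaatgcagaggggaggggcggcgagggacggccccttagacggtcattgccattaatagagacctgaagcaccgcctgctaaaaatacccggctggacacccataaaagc
Matches of Hsph1, Dnajb1 and Hspa9, likewise in capitals, are shown with 20 bases on each side. They lie at chr12:10427243-10427290 and chr12:10427312-10427364 on the plus strand, at chr19:41431125-41431172 and chr19:41431097-41431144 on the minus strand, and at chr18:26828455-26828502 and chr18:26828354-26828401 on the minus strand.
Hsph1, upstream match: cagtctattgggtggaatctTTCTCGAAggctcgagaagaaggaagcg
Hsph1, match near the start: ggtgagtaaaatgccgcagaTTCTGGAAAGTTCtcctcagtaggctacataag
Dnajb1, upstream match: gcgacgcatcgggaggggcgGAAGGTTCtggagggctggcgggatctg
Dnajb1, downstream match: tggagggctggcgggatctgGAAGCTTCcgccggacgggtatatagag
Hspa9, upstream match: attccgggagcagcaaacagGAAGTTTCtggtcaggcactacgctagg
Hspa9, match near the start: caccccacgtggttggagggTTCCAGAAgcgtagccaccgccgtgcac
In Hsph1 the match near the start has 3 adjoining units, so that one inverted pair overlaps the next. These letters were not found in the windows of Dnajb9 and Dnajb7. They were present in members called in no comparison, among them Hspa8, Dnaja1, Hspd1, Hspe1 and Hspb6. The windows of Hspa1a and Hspa1l, under the shared Hspa1 probe set, held no match. Those of Hspd1 and Hspe1 overlap, so the same letters can count in both. The ER stress element (CCAAT, 9 bases, CCACG, on either strand) was present in the promoters of Hspa5, Hsp90b1 and Dnajc3, and in 0.0765% of all promoters. A match is a description of the letters and not a bound site.

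Hspb1 encodes Hsp27, a small heat shock protein that also stabilizes actin filaments. It was 5.85, 5.29 and 6.31 in the control arrays and 9.03, 7.02 and 9.12 in the LD arrays. The saffron arrays were at 7.26, 6.24 and 5.71 and the PBM arrays at 5.47, 6.02 and 5.67. After pretreatment and light it was 6.62, 6.30 and 6.47 in SafLD and 8.10, 7.21 and 6.62 in PBMLD. The LD arrays all lay above the controls, LD 2 well below the other two. The SafLD arrays lay close together near the highest control, and the PBMLD arrays lay above every control.

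LD exceeded control by 2.57 ± 0.49 (SE, n = 3 and 3), or 5.95-fold, with an adjusted p of 0.0117 by limma. Hspb1 was the single member called in this comparison, and the single one of those called that passed 2-fold. Of all probe sets, 1.11% were called, 0.839% higher, 0.531% called and more than 2-fold, and 1.70% of those with 1 gene symbol, so 1 of 63 is near the background. With each of the 6 arrays left out in turn the difference lay between 2.21 and 3.26, and the call was lost without control 1, control 2 or LD 3 (adjusted p up to 0.0989 by limma). SafLD differed from LD by -1.93 ± 0.49 with no overlap, but the adjusted p was 0.131 by limma. Without LD 2 the gap was -2.61, with an adjusted p of 0.0040 by limma. The LD arrays then left, LD 1 and LD 3, had the highest lens signal of all arrays (below). In the other 5 fits without an array it was not called. There the gap was as small as -1.56 and the adjusted p as high as 0.381. PBMLD exceeded control by 1.49 ± 0.49 with no overlap (adjusted p = 0.216 by limma), and was called there by the methods' t-test at an unadjusted p under 0.05 and more than 2-fold. PBMLD differed from LD by -1.08 ± 0.49 (adjusted p = 0.408 by limma), with overlap. Neither pretreatment was therefore shown to change Hspb1 in lit retina. The light effect after saffron differed from that without it by -2.51 ± 0.69 (adjusted p = 0.367 by limma).

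Hspb1 is also expressed in lens, and the arrays highest in Hspb1 were high in lens genes. Elsewhere the order differed. Counted from the highest, saffron 2 and saffron 3 ranked 5 and 7 for lens but 12 and 15 for Hspb1. LD 2 ranked 15 for lens and 6 for Hspb1. The median lens marker difference from control was 0.87 in LD, 0.82 in saffron, 0.35 in PBMLD, 0.07 in SafLD and -0.08 in PBM. The mean of 14 lens markers was 11.09, 8.95 and 10.93 in LD, 10.44, 9.89 and 9.67 in saffron and 10.30, 9.29 and 9.38 in PBMLD. It was 9.11, 8.93 and 9.46 in control, 8.87, 9.24 and 9.28 in PBM, and 9.76, 9.15 and 8.91 in SafLD. The 4 arrays with the highest Hspb1 signal (LD 3, LD 1, PBMLD 1 and saffron 1) were also the 4 with the highest lens mean, each above 10. In these arrays 11 to 14 of the 14 lens markers exceeded every control array, as did 11 or 12 in saffron 2, saffron 3 and SafLD 1, whereas 1 of 14 did in LD 2. None of the 14 was called in any pairwise comparison with control. Pigment epithelium markers (8 of 9 listed were measured) were also high in LD. Their mean was 7.37, 6.87 and 7.38 in LD, against 6.14 to 7.07 in control, and LD 1 and LD 3 were the highest of the 18 arrays. It was 6.09 to 6.81 in SafLD, 6.32 to 6.49 in saffron, 5.97 to 6.60 in PBM and 5.61 to 7.12 in PBMLD, where PBMLD 1, high in Hspb1, was the lowest of all arrays. The median difference of these markers was 0.52 in LD against control, -0.55 in PBMLD against LD and -0.52 in SafLD against LD, with 0 of 8 called by limma in each. The alpha-crystallins Cryaa and Cryab, which belong to the small heat shock protein family and are defining lens proteins, had signals between 12.85 and 13.82 on all arrays, and neither was called.

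Among arrays with a lens mean of 10 or less, Hspb1 was between 6.30 and 7.21 in the 6 light arrays (median 6.62) and between 5.29 and 6.31 in the 8 without light (median 5.78). Without the 4 lens-high arrays, a setting chosen after the values were seen, light exceeded no light by 0.96. With them it did so by 1.41 ± 0.28 (adjusted p = 0.0057 by limma). The same 4 arrays held the 4 highest Hspb1 signals, so the setting removed the extremes of Hspb1 itself. It is therefore no separate test of light. The LD group was then LD 2 alone, so only effect sizes are given here. LD differed from control by 1.20 and SafLD from LD by -0.56. The part of lens or pigment epithelium in the Hspb1 difference between LD and control was not tested.

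**Figure D2:**
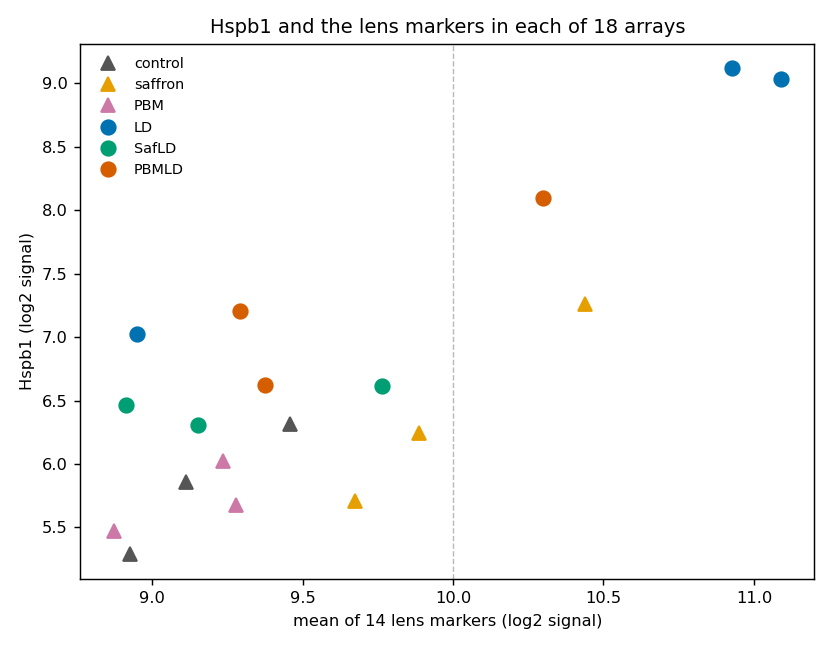
Hspb1 signal against the mean of 14 lens markers (both log2), 1 point per array, triangles for the groups without light and circles for the light groups. The 4 arrays to the right of the dashed line at 10 hold the 4 highest Hspb1 signals, and to its left the light arrays span 6.30 to 7.21 and the others 5.29 to 6.31.

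The remaining small heat shock proteins were not called in any of the 12 comparisons. Hspb6, a small heat shock protein best known from muscle, was 9.06 ± 0.11 (SD, n = 3) in control and 8.50 ± 0.06 in SafLD, a difference of -0.56 ± 0.17 (adjusted p = 0.0899 by limma). In LD it differed from control by -0.44 ± 0.17 (adjusted p = 0.361). Over all light arrays the difference was -0.32 for Hspb6 and -0.36 for Hspb2, with adjusted p of 0.0786 and 0.0808 by limma. Hspb8, a partner of the co-chaperone Bag3 in autophagy, had the next widest spread within groups after Hspb1, with a range of 1.02 among the saffron arrays. Hspb3, Hspb7 and Hspb9 had mean signals over all arrays of 4.41, 3.76 and 4.72.

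Hsph1 is an Hsp110 protein, which exchanges nucleotide on Hsp70. It was 8.58, 8.64 and 8.39 in control, 8.62, 8.02 and 8.41 in saffron and 8.79, 8.93 and 8.79 in PBM. With light it was 9.09, 9.20 and 9.22 in LD, 8.88, 9.21 and 9.45 in SafLD and 9.05, 8.65 and 9.16 in PBMLD. All but 2 of the light arrays, SafLD 1 and PBMLD 2, lay above every array without light. Light exceeded no light by 0.53 ± 0.10, or 1.44-fold, with an adjusted p of 0.0033 by limma. SafLD exceeded saffron by 0.83 ± 0.17 (adjusted p = 0.0146), a call lost without saffron 2, SafLD 2 or SafLD 3. The difference between LD and control, 0.64 ± 0.17, did not pass (adjusted p = 0.0968).

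Hspa9 is mortalin, the Hsp70 of the mitochondrial matrix, which pulls imported proteins across the inner membrane and folds them. It was 10.73, 10.73 and 10.42 in control and 10.66, 10.45 and 10.75 in saffron. In PBM it was 10.97, 11.11 and 10.91, above every control array. The light groups were at 11.11, 11.14 and 10.91 in LD, 11.20, 11.39 and 11.41 in SafLD and 11.35, 11.15 and 11.10 in PBMLD. Every light array therefore exceeded every control and saffron array, and only the PBM group overlapped with them.

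Light exceeded no light by 0.45 ± 0.07, or 1.37-fold, for Hspa9, the smallest adjusted p among the members (0.0011 by limma). SafLD exceeded control by 0.70 ± 0.13 (adjusted p = 0.0062) and saffron by 0.71 ± 0.13 (adjusted p = 0.0054). Both calls held with each array left out in turn. PBMLD exceeded control by 0.57 ± 0.13 (adjusted p = 0.0477), a call that was lost in 5 of 6 fits without an array, all but that without PBMLD 2. LD differed from control by 0.43 ± 0.13 and PBM by 0.37 ± 0.13, neither called (adjusted p = 0.158 and 0.353 by limma). Hspa9 was the only member called in PBMLD against control, where 0.753% of probe sets were called. In SafLD against control 2 members were called, Hspa9 and Dnajb1, where 2.80% of all probe sets and 3.25% of those with 1 gene symbol were.

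**Figure D3:**
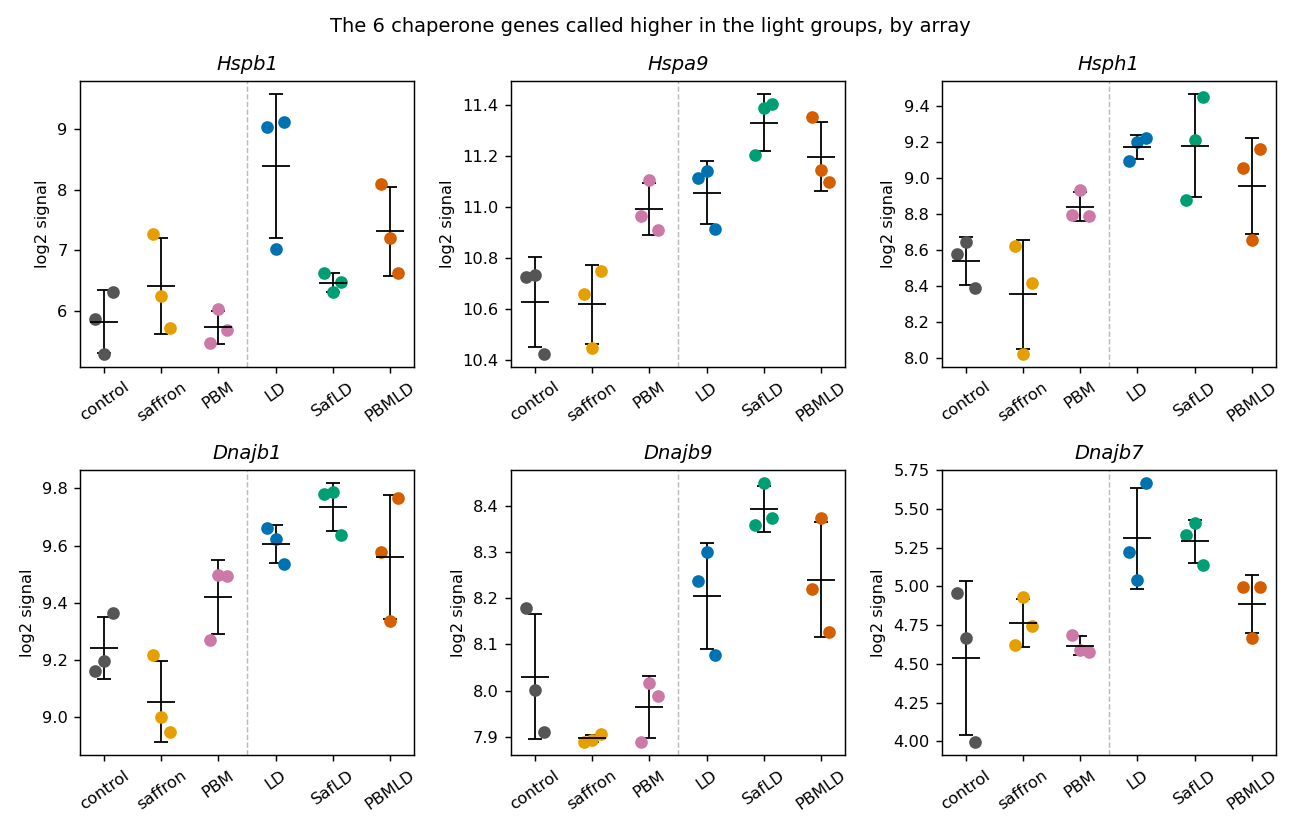
Log2 signal of the 6 members called higher in the light groups, 1 point per array, with the group mean and SD (n = 3) as bars. The dashed line separates the groups without light (left) from the light groups (right), and the signal axes differ between genes and do not start at 0.

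The inducible and constitutive cytosolic Hsp70 genes were not called. The shared Hspa1 probe set, which includes the stress-inducible Hsp70 genes, was 10.09, 10.40 and 10.42 in control, 10.12, 10.33 and 10.17 in LD and 10.13, 10.30 and 10.18 in SafLD. These groups overlapped, and LD differed from control by -0.10 ± 0.17 (adjusted p = 0.932 by limma), with a 95% interval from -0.46 to 0.27. In PBMLD it was 10.11, 9.36 and 10.16, so that PBMLD 2 alone was low. Hspa8, the constitutive Hsc70, was 13.43 ± 0.04 (SD, n = 3) in control and 13.49 ± 0.07 in LD. Its 8 probe sets gave differences between 0.06 and 0.12 for LD against control.

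Hspa5 is BiP, the Hsp70 of the endoplasmic reticulum (ER). It was 11.25, 11.22 and 10.86 in control, 11.48, 11.70 and 11.16 in LD, 11.54, 11.60 and 11.70 in SafLD and 11.38, 10.83 and 11.26 in PBMLD. The SafLD arrays lay above all controls, but neither SafLD (0.50 ± 0.16, adjusted p = 0.106 by limma) nor LD (0.34 ± 0.16, adjusted p = 0.518) was called. PBMLD 2 held the lowest value among the light arrays here as well. The other Hspa members, Hspa2, Hspa4, Hspa4l, Hspa12a, Hspa12b, Hspa13 and Hspa14, were not called in any comparison.

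Hsp90 and the chaperonin pair did not pass the test in any comparison. Hsp90aa1, the stress-inducible cytosolic Hsp90, was 12.73 ± 0.09 in control and 12.86 ± 0.03 in LD (SD, n = 3). Light differed from no light by 0.03 for Hsp90aa1, 0.10 for Hsp90ab1 and 0.04 for Hsp90b1, the ER form. The 95% interval for Hsp90aa1 ran from -0.11 to 0.17. Hspd1 and Hspe1, which form the folding chamber of the mitochondrial matrix, differed by 0.13 and 0.20. Hspe1 was among the members with the widest spread within groups, with a range of 0.91 in PBMLD. Hspd1 in SafLD exceeded control by 0.43 ± 0.14 (adjusted p = 0.110 by limma).

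Dnajb1, or Hsp40, the J-domain partner of cytosolic Hsp70, was 9.16, 9.20 and 9.37 in control, 9.22, 9.00 and 8.95 in saffron and 9.27, 9.50 and 9.49 in PBM. With light it was 9.66, 9.62 and 9.53 in LD, 9.78, 9.79 and 9.64 in SafLD and 9.58, 9.33 and 9.77 in PBMLD. All light arrays but PBMLD 2 exceeded every array without light. The difference was 0.39 ± 0.07 (adjusted p = 0.0030 by limma), 1.31-fold. SafLD exceeded control by 0.49 ± 0.13 (adjusted p = 0.0451), a call lost on leaving out any of the 6 arrays, and saffron by 0.68 ± 0.13 (adjusted p = 0.0070), which held in all of them.

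Dnajb9, an ER J-domain protein (ERdj4) that serves BiP, was 8.18, 8.002 and 7.91 in control, 7.89, 7.89 and 7.91 in saffron and 7.89, 8.02 and 7.99 in PBM. It was 8.24, 8.30 and 8.08 in LD, 8.36, 8.45 and 8.37 in SafLD and 8.22, 8.37 and 8.13 in PBMLD. The light arrays overlapped with the rest only through control 1. Light exceeded no light by 0.32 ± 0.06 (adjusted p = 0.0054 by limma), and SafLD exceeded saffron by 0.50 ± 0.11 (adjusted p = 0.0213). The latter was lost without saffron 1, saffron 2, SafLD 2 or SafLD 3. Together with Hspa9, Dnajb1 and Hsph1 this made 4 members called in SafLD against saffron, where 2.09% of all probe sets were called.

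Dnajb7 had a low signal, between 3.99 and 5.67 on all arrays. It was 4.96, 4.67 and 3.99 in control, 5.22, 5.04 and 5.67 in LD, 5.33, 5.41 and 5.14 in SafLD and 4.99, 4.67 and 5.00 in PBMLD. LD and SafLD lay above all controls and PBMLD did not. Light exceeded no light by 0.52 ± 0.12 (adjusted p = 0.0134 by limma), and without the 4 lens-high arrays by 0.39, with an adjusted p of 0.216.

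The other 36 J-domain members were not called in any comparison. Of the Dnaja class, the 4 differences between LD and control lay between -0.25 and 0.10, and Dnaja2 had a light difference of -0.12. The 23 Dnajc members lay between -0.46 and 0.17 in LD against control, with a median of -0.11 against -0.02 over all probe sets. Dnajc12 was 10.95, 10.88 and 10.90 in control and lower in every PBM array, at 10.39, 10.19 and 10.46. It was 10.61, 10.57 and 10.70 in LD, 10.56, 10.49 and 10.25 in SafLD and 10.16, 10.70 and 10.18 in PBMLD, all below the controls. None of these gaps passed over all probe sets. The difference was -0.56 ± 0.15 for PBM (adjusted p = 0.203 by limma), -0.56 ± 0.15 for PBMLD (adjusted p = 0.0942) and -0.48 ± 0.15 for SafLD (adjusted p = 0.0946).

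Pretreatment without light gave no called member. PBM against control had 0 of 63 members called by limma, where 0.154% of all probe sets were called. The members with the smallest p were Dnajb13 (-0.74 ± 0.18), Dnajc12 and Dnajc30 (-0.59 ± 0.18), with adjusted p of 0.182, 0.203 and 0.286 by limma. Dnajb13, a component of cilia and flagella, was 6.83, 6.88 and 6.50 in control and 6.14, 5.81 and 6.04 in PBM, without overlap. Saffron against control had 0 of 63 members and 0% of all probe sets called by limma. The shared Hspa1 probe set (-0.35 ± 0.17), Dnajc11 (-0.41 ± 0.20) and Dnajc30 (-0.37 ± 0.18) had the smallest p there, each with an adjusted p of 0.989. The methods' t-test at an unadjusted p under 0.05 and more than 2-fold gave 0 members in both, with no share of all probe sets at hand for it.

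**Figure D4:**
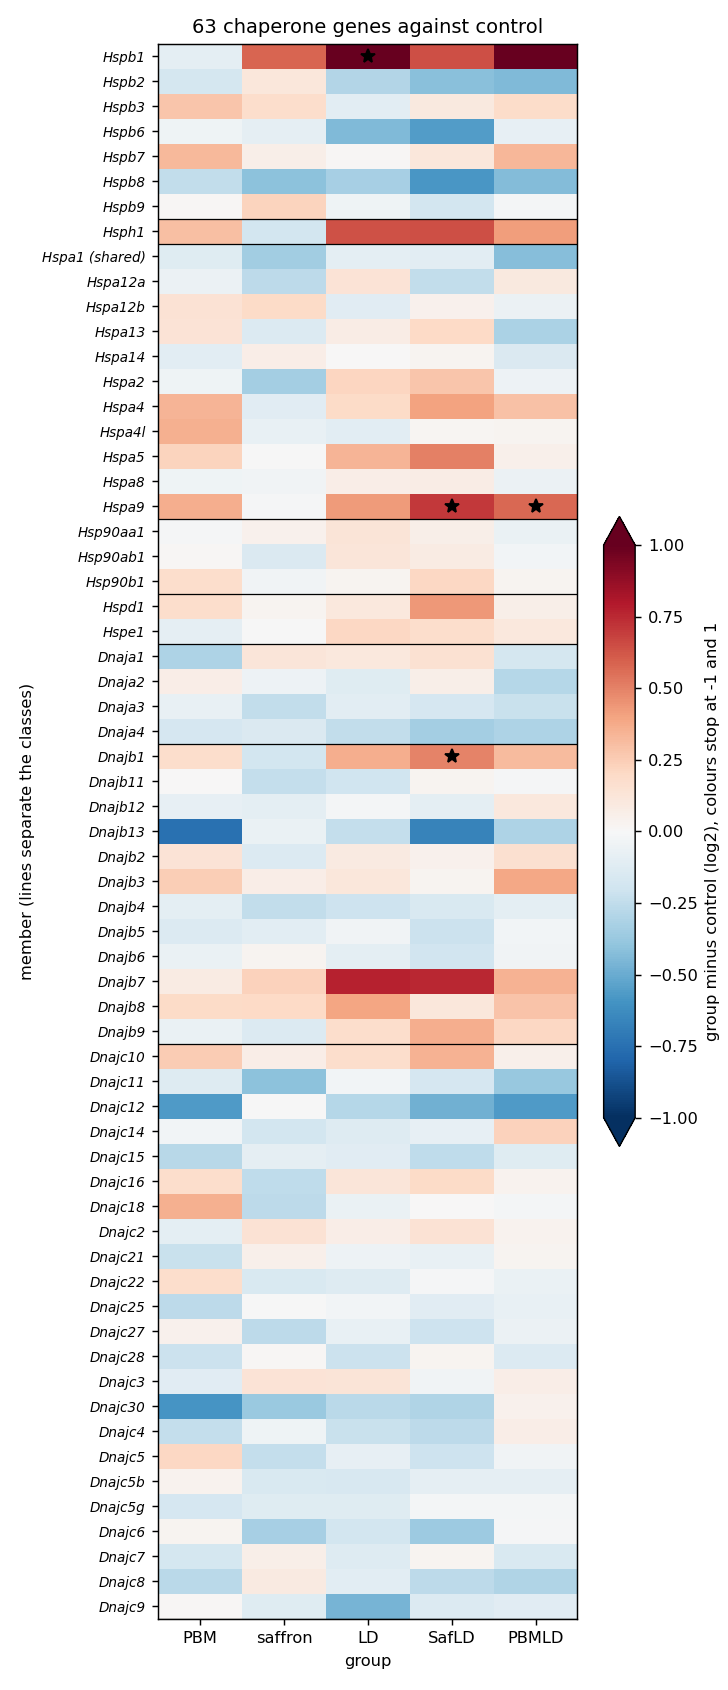
Difference from control (log2) of the 63 members in the 5 other groups, ordered by class, with lines between the classes and a star where adjusted p was below 0.05. Colours stop at -1 and 1, which Hspb1 exceeds in LD (2.57) and PBMLD (1.49), and 4 stars are seen, on Hspb1, on Hspa9 in SafLD and PBMLD, and on Dnajb1.

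Comparisons of pretreated with unprotected lit retina likewise gave 0 called by limma. In PBMLD against LD 0.284% of all probe sets were called. Dnajc4 (0.29 ± 0.12), Hspb1 and Dnajc14 (0.36 ± 0.17) had the smallest p, with adjusted p of 0.373, 0.408 and 0.428. In SafLD against LD 0.308% of all probe sets were called. Hspb1 had the smallest p there, followed by Hspd1 (0.33 ± 0.14, adjusted p = 0.464) and Dnajb13 (-0.43 ± 0.18, adjusted p = 0.468). PBMLD against PBM had 0 members called, where 0.329% of all probe sets were called. Dnajc30 (0.63 ± 0.18, adjusted p = 0.234), Hspb1 (1.59 ± 0.49, adjusted p = 0.277) and Hspa4l (-0.33 ± 0.12, adjusted p = 0.432) led there. The methods' t-test at an unadjusted p under 0.05 and more than 2-fold gave 0 members in PBMLD against LD. It gave 1 each in SafLD against LD and PBMLD against PBM, where Hspb1 was the only member past 2-fold. The shares above are for limma, and none is at hand for this test. Its counts therefore cannot be set against the whole array.

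The change with light itself was also compared between pretreated and untreated animals. For the light effect after PBM against that without it, 0 of 63 members and 0.00685% of all probe sets were called by limma. Dnajc30 (0.91 ± 0.26), Dnajc4 (0.53 ± 0.17) and Dnajb13 (0.67 ± 0.26) came first, each with an adjusted p of 0.999. After saffron 0 members were called, where 0.140% of all probe sets were called. After Hspb1, Dnajb11 (0.46 ± 0.19, adjusted p = 0.770) and Dnajb8 (-0.48 ± 0.21, adjusted p = 0.828) came first. These comparisons share control and LD arrays, so their values are not independent.

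Genes that regulate or assist the chaperones were examined from lists. Of 6 listed heat shock factors and proteins that bind them 5 were measured. They were Hsf1, Hsf2 and Hsf4, with the binding proteins Hsbp1 and Hsf2bp. By limma 0 were called in any of the 12 comparisons, and their light differences lay between -0.05 and 0.11. Of 29 listed co-chaperones of Hsp70 and Hsp90 outside the J-domain family 26 were measured. Of these Ahsa2, related to the activator of the Hsp90 ATPase, rose, with 0.43 ± 0.08 for light (adjusted p = 0.0031) and 0.61 ± 0.14 for SafLD against control (adjusted p = 0.0241 by limma). It was 6.75, 6.81 and 6.26 in control, 7.14, 7.10 and 7.32 in LD and 7.25, 7.23 and 7.18 in SafLD, without overlap. The cytosolic chaperonin and prefoldin (13 of 15 measured) and the mitochondrial chaperones, import motor and proteases (10 of 12 measured) had 0 called, and their light medians were -0.01 and 0.08 against -0.01 over all probe sets. In light 1 of the 26 co-chaperones was called, where 4.82% of all probe sets and 6.16% of those with 1 gene symbol were.

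Of 24 listed ER chaperone and unfolded protein response genes 19 were measured, and 3 were called higher with light and 0 lower. In this comparison 4.82% of all probe sets and 6.16% of those with 1 gene symbol were called. Of all probe sets 2.83% were called higher. Herpud1, an ER membrane protein of the pathway that degrades misfolded proteins, was 8.89, 8.81 and 8.75 in control, 9.54, 9.41 and 9.23 in LD, 9.18, 9.37 and 9.31 in SafLD and 9.35, 9.15 and 9.53 in PBMLD. It rose by 0.67 ± 0.07 in light (adjusted p = 2.52e-05 by limma), and by 0.58 ± 0.13 in LD against control (adjusted p = 0.0384). Eif2ak3 (PERK), the kinase that senses ER stress, rose by 0.42 ± 0.09 (adjusted p = 0.0130), and Atf4, the transcription factor downstream of it, by 0.35 ± 0.08 (adjusted p = 0.0119). The median of the list was 0.04 in light, against -0.01 over all probe sets. Hspa5, Hsp90b1 and Dnajc3, the members whose promoters hold the ER stress element, were not called in the same comparison.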

How the data were processed

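Retinal RNA from 18 rats was hybridised to Affymetrix rat Gene 1.0 ST arrays, 1 per animal. The authors normalized the arrays by RMA and deposited log2 values for 29214 probe sets, which were used as they stand. Affymetrix Expression Console (version 1.1.2800.19935) is named in the submitters' processing notes, whereas the methods name GeneSpring GX and Partek Genomic Suite, with RMA run in Partek on the core probe list. Which program made the deposited values was not settled. RMA shrinks differences of dim probe sets. Probe sets were named from the platform annotation: 15310 have 1 gene symbol, 323 several and 13581 none. For a gene with several probe sets the one with the highest mean was used.

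All 18 arrays entered 1 limma fit (version 3.58.1, R 4.3.3) with 6 group means (12 residual and 5.05 prior degrees of freedom), from which 12 comparisons were taken. P-values were two-sided and adjusted over all probe sets. The study used a t-test and a 2-fold limit, tried here as the methods' t-test. The number of arrays limits the precision, and an exact permutation test of 3 against 3 cannot go below 0.10. The fit was tested on simulated data. The highest correlation between arrays was 0.994, and no 2 arrays held the same values.

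The members and gene lists were chosen with earlier results of these data known. Genes named are Hspb1, the called members of each comparison (the 3 with the smallest p where fewer were called), leading members of each class, members of widest spread, and called genes of the other lists. Genes named beside these were chosen after their values were seen. Alternatives were other tests, weights, scalings, filters and probe set rules, a replicate block, and each array left out in turn.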

Additional observations from a re-analysis of the deposited data

Results flagged for a closer look

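Dnajc4, a J-domain protein, differed from its unlit group in opposite directions in untreated and PBM-treated animals. It was 8.34, 8.03 and 8.29 in LD, below the control arrays at 8.47, 8.39 and 8.48. In PBMLD it was 8.46, 8.77 and 8.30, above the PBM arrays at 8.17, 8.27 and 8.17. The difference between the light effects was 0.53 ± 0.17 (SE), which did not pass over all probe sets (adjusted p = 0.999 by limma).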

How the results depend on the processing

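The 6 members called in light kept their direction under every alternative run, and all but Dnajb7 were still called under each one except the 2-fold limit, which left Hspb1 alone (count 1). Array weights raised the counts to 12 in light (8 higher, and Dnajc9, Dnajc12, Hspb2 and Hspb6 lower), where 9.18% of all probe sets were called. Against control they gave 4 higher in LD (2.13% of probe sets), 3 in PBMLD (2 higher and Dnajc12 lower, 2.20%), 12 in SafLD (9 higher and 3 lower, 10.9%) and 3 in PBM (Dnajb13, Dnajc12 and Dnajc30, all lower, 2.75%). They gave 12 in SafLD against saffron (9 higher and 3 lower, 7.89%) and 1 in SafLD against LD (Hspb1, lower, 2.20%). With the 2 groups alone 0 members were called in LD and 0 in PBMLD against control, and 1 in SafLD against saffron. The adjusted t-test with the 2-fold limit gave 0 in LD, PBMLD and SafLD against control and 0 in SafLD against saffron; unadjusted it gave 0 in SafLD against control and SafLD against saffron, and 1 in SafLD against LD and PBMLD against PBM. In PBMLD against control the unadjusted t-test also called 1 member, but this was Hspb1 (a log2 difference of 1.49) in place of Hspa9, which is under 2-fold. The 2-fold limit on limma left 0 in PBMLD against control, SafLD against control and SafLD against saffron. Median centring left 0 in PBMLD and 1 in SafLD against control, and leaving out dim probe sets gave 4 in SafLD against control. Without the 4 lens-high arrays 0 were called in LD and 0 in PBMLD against control, and Hspb6 was called lower in SafLD against control (-0.56, adjusted p = 0.0487 by limma). In this section only the array-weight counts have a share of all probe sets beside them. The counts under the other alternatives, here and below, therefore cannot be set against the whole array. The causes were not tested.

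Leaving out each array in turn gave 0 to 1 members called in LD, 0 to 2 in PBMLD and 1 to 2 in SafLD against control, 2 to 4 in SafLD against saffron, 0 to 1 in SafLD against LD, 0 to 1 for the light effect after saffron, and 6 to 8 in light. The count in LD went to 0 without control 2 or LD 3, and the extra calls of SafLD against LD and of the light effect after saffron arose without LD 2. That in PBMLD went to 0 without control 1, 2 or 3 or PBMLD 1 or 3, and to 2 without PBMLD 2. SafLD against control fell to 1 without control 2, control 3 or SafLD 3, and SafLD against saffron to 2 without saffron 2, SafLD 2 or SafLD 3.

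Samples sharing a replicate number were not paired: correlations of their deviations ran from -0.39 to 0.31, with a mean of -0.03, and 5 of 18 arrays correlated best with their own number. With the replicate block 0 members were called in PBMLD and 1 in SafLD against control, and the other counts stayed within 1.5 times.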
